A study of Homo sapiens with 4 samples.

Results

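The comparison described here sets the 2 arrays numbered replicate 1 against the 2 numbered replicate 2 in human proximal tubular cells (HPTCs) that received IL-1β plus Empa. All 4 of the 4 arrays used here entered it. There was 1 array for each replicate number of HK-2, a line immortalised with papillomavirus E6 and E7, and 1 for each replicate number of RPTEC/TERT1, a line immortalised with TERT. All 4 cultures had gone without serum and supplements for 24 h and had then received IL-1β (10 ng/mL) with Empa (500 nM) for 24 h, so every array carries both agents and no array here is an untreated control. Both lines are single immortalised lines grown as monolayers. The methods call the 2 cultures of a line biological duplicates, and p-values measure only the spread between these arrays.

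Replicate number was also scan date. Both replicate 1 arrays were scanned on one date and both replicate 2 arrays on another, so culture, scan date and any step done with them cannot be told apart. The arrays were not most alike within a labelled line. Across 16468 genes, the correlation was 0.983 for HK-2 replicate 1 and its counterpart RPTEC/TERT1 replicate 2, and 0.975 for HK-2 replicate 2 and its counterpart RPTEC/TERT1 replicate 1. Arrays of one label correlated less, at 0.847 for HK-2 and 0.833 for RPTEC/TERT1. The array likeness therefore goes against the cell line labels. For this reason the replicate numbers were compared within pair A (replicate 1 of HK-2 with replicate 2 of RPTEC/TERT1) and within pair B (replicate 1 of RPTEC/TERT1 with replicate 2 of HK-2). These pairs were chosen from the same arrays. They share no array, so each gene has 2 separate differences. In pair A the labelled line runs from HK-2 to RPTEC/TERT1 and in pair B the other way round, so a gene that moves the same way in both follows the replicate number and neither the label nor the pair.

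IL-1β is a cytokine that acts on tubular cells through NF-κB, a transcription factor that turns on chemokine genes. Empa (empagliflozin) inhibits SGLT2, the glucose transporter of the early proximal tubule that SLC5A2 encodes. On the array each gene is read by one or more probes of 60 bases fixed to the glass. Labelled copies of the cell's RNA bind to them, and the brightness of a spot depends on the amount of the RNA and also on how firmly the probe binds, to its own target and to others. Probes rich in G and C bind more firmly than probes rich in A and T.

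The sequences that go with the findings are the probes of the leading genes, since the probe letters and the direction of the difference moved together. They are the designed probes of the deposited files, 5′ to 3′, and capitals mark the run CCGCC, the overlapping run CGCCC and the run CTCTCT, which were chosen after the leading probes had been seen. The first 2 probes are shown whole and read non-coding RNAs that were higher on both replicate 2 arrays. The third is the whole probe of 18S ribosomal RNA, also higher, and holds none of the runs. The fourth is the whole probe of mitochondrial ND4, which was lower in both pairs.

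LINC00577: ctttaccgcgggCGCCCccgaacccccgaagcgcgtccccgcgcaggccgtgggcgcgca
SNORA71A: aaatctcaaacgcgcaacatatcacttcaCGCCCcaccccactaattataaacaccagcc
RNA18S5: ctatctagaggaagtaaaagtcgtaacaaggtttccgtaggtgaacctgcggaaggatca
ND4: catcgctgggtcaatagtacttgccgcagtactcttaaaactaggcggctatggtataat

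The next lines give the first 30 bases of probes to protein-coding genes and 1 pseudogene. The first 5 were higher on both replicate 2 arrays and the last 3 lower.

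DUOXA1: cttgtgttacctcCCGCCacacacctctaa
KCTD19: cctcatgccccacCCGCCaagtctcatttt
FOXB1: gccacgcggcgggccaaacgctgcCCGCCa
PTH2: CGCCCtcgagcgCCGCCactggctgaactc
EMILIN1: gcgcgggcgCCGCCCaCCGCCatactaaac
RET: ccctctgcactatccttcCTCTCTgtgatg
DOCK3: gCCGCCattcatcatcCTCTCTCTcctcac
FMO6P: CTCTCTcctttcctgaagatatgaaaatca

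On GRCh37, the build of the file headers, the DUOXA1 probe lies at chr15:45409688-45409747 on the minus strand, the KCTD19 probe at chr16:67323393-67323452 on the minus strand and the LINC00577 probe at chr6:105388328-105388387 on the minus strand. The DOCK3 probe lies at chr3:51399313-51399372 on the plus strand and the FMO6P probe at chr1:171130637-171130696 on the plus strand. DOCK3 shows that a run did not fix the direction, since its probe holds both CCGCC and the run CTCTCT and was lower on both replicate 2 arrays.

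Differences between the replicate numbers were small for most genes and shared a direction more often than not. Levels are log2 values of the processed signal over the 75th percentile of the array, so 0 is that percentile and a difference of 1 is 2-fold. The median absolute difference was 0.22 in pair A and 0.30 in pair B, against 0.67 for the difference between the pairs. The direction was the same in both pairs for 10626 of the 16468 genes (64.5%). Genes are not independent replicates, and across them the 2 differences had a Pearson correlation of 0.49 and a Spearman correlation of 0.48. The 2 differences come from separate arrays.

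Of the 16468 genes tested, 240 (1.46%) were at least 2-fold higher and 74 (0.449%) at least 2-fold lower on the replicate 2 array in both pairs, together 314 genes (1.91%). Another 30 genes were at least 2-fold apart in opposite directions. With the crossed pair as a block, limma called 82 genes (0.498%) at an adjusted p under 0.05, of which 76 (0.462%) were higher and 6 (0.0364%) lower on replicate 2. Below, rose and fell mean higher or lower on replicate 2 past this threshold and carry no order in time. All 82 were among the 314. In bulk cultures such as these, fewer cells with a transcript and less of it per cell cannot be told apart. The fit left 1 residual degree of freedom, which is the difference between the labelled cell lines, and borrowed spread across genes. Its p-values therefore do not measure the spread between replicate cultures of a line. The block was also chosen from the likeness of these same arrays. At an unadjusted p under 0.05 it passed 1657 genes higher (10.1%) and 1283 lower (7.79%). Without the block limma called 0 genes, with 195 at an unadjusted p under 0.05, because the difference between the pairs then counts as spread.

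**Figure D1:**
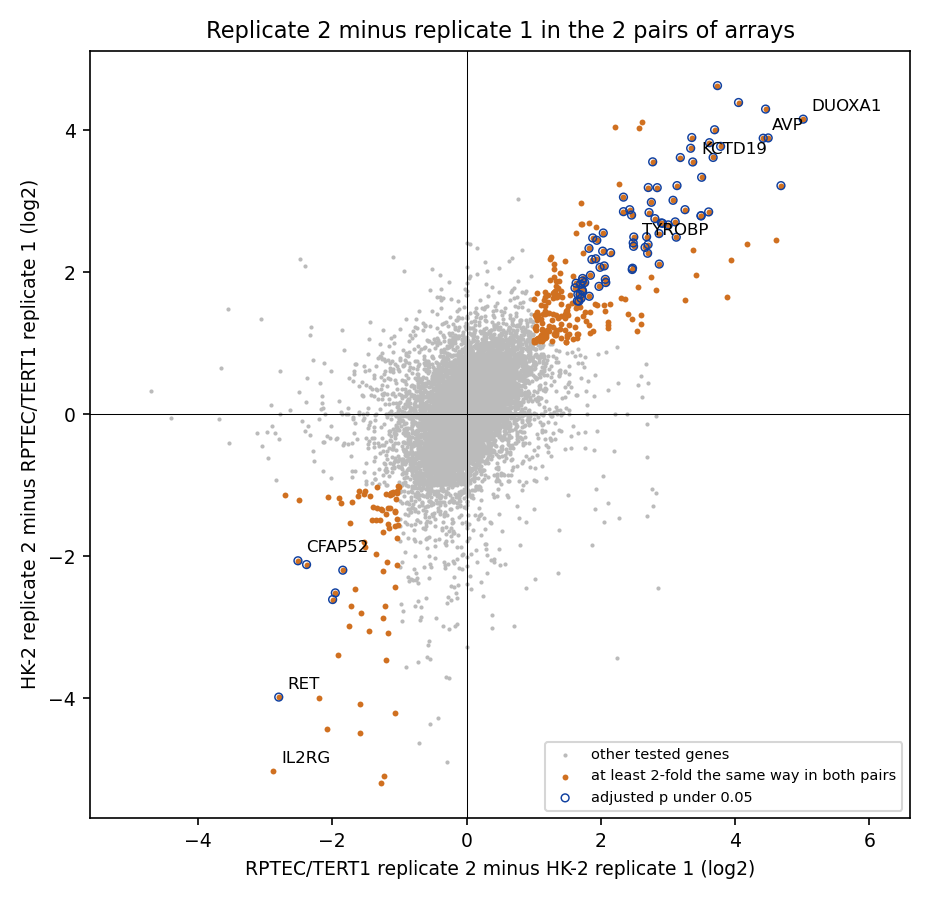
Each point is 1 of the 16468 tested genes. The x axis is the log2 difference in pair A and the y axis that in pair B, both as replicate 2 minus replicate 1. Orange points are the 314 genes at least 2-fold apart the same way in both pairs and blue rings the 82 genes past the adjusted threshold. The upper right corner holds 240 of the 314, with DUOXA1, at the floor on 1 array, farthest out among the labelled genes.

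Just inside the 2-fold line the smaller of the 2 differences was 1.004 for EVX1 and -1.004 for NLRP5, and just outside it was 0.997 for SOWAHD and -0.998 for MTMR12. The 240 higher genes had a median level of -1.59 on replicate 1 and 0.20 on replicate 2, and 199 of them were well above background on all 4 arrays. For 17 of them neither replicate 1 array was well above background. The 74 lower genes had a median level of -2.08 on replicate 1 and -3.50 on replicate 2, 40 were well above background on all 4 arrays, and 16 were not well above background on either replicate 2 array. RefSeq lists 48.3% of the higher and 44.6% of the lower genes by this name as protein coding, against 76.4% of the genes tested.

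All of the 12 leading higher genes passed the test. They were picked by the same pair differences that the test uses, so passing it adds no separate evidence. DUOXA1, the maturation factor of the dual oxidase DUOX1, was at -4.00 on HK-2 replicate 1 and 1.01 on RPTEC/TERT1 replicate 2, and at the floor of -5.37 on RPTEC/TERT1 replicate 1 and -1.21 on HK-2 replicate 2. Both replicate 2 arrays were above both replicate 1 arrays, by 5.01 in pair A and 4.16 in pair B. The fitted rise was 4.59 ± 0.25 (SE) on the log2 scale (limma, adjusted p = 0.0192). That value rests in part on the floor, since DUOXA1 was not well above background on RPTEC/TERT1 replicate 1.

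NCF1 encodes p47phox, an organiser of the phagocyte NADPH oxidase, and has near-identical pseudogenes that its probe may also read. Its levels were -5.04 and -5.37 on the replicate 1 arrays of HK-2 and RPTEC/TERT1, neither well above background, and -0.55 on RPTEC/TERT1 replicate 2 and -1.48 on HK-2 replicate 2. With the floor as the lowest value, that is at least 18.3-fold higher on replicate 2 (adjusted p = 0.0189). AVP, which encodes the precursor of the antidiuretic hormone vasopressin, was likewise not well above background on either replicate 1 array (-4.57 and -5.37) and stood at -0.15 on RPTEC/TERT1 replicate 2 and -1.48 on HK-2 replicate 2. Its rise was at least 17.8-fold (adjusted p = 0.0189). Here and below such a bound sets the mean of the bright arrays against that of the dim ones, with the dim ones taken no lower than the floor. These sizes depend on the background correction. With normexp the fitted differences were 1.69 for DUOXA1, 0.59 for NCF1 and 0.84 for AVP (adjusted p = 0.405, 0.673 and 0.537), and in the deposited log2 values they were 1.92, 0.88 and 1.11, so none of the 3 was called in either.

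PTH2, which encodes a ligand of a parathyroid hormone receptor, was at -2.39 and -3.43 on the replicate 1 arrays of HK-2 and RPTEC/TERT1 and at -0.54 and 0.87 on their replicate 2 arrays. It rose by 3.07 ± 0.18 (adjusted p = 0.0192). That call was lost in 3 of 8 alternative settings, among them normexp (1.41, adjusted p = 0.405) and the deposited values (1.62). PCSK1N, whose product proSAAS inhibits a prohormone convertase, was brighter throughout, at 1.73 and 0.54 on replicate 1 and 3.38 and 4.45 on replicate 2 of the same lines, a rise of 2.78 ± 0.16 (adjusted p = 0.0192). SHH, a secreted morphogen named here after its values were seen, was not well above background on replicate 1 and was at -1.47 and -2.88 on the replicate 2 arrays, at least 7.01-fold higher (adjusted p = 0.0307). With normexp its difference was -0.043 and in the deposited values 0.26, where the medians of all genes were -0.46 and -0.32. Its size thus depended on the background correction. Its sign turned with normexp, although it stayed above the median gene in both.

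FOXB1, a forkhead factor of the developing nervous system, was at 0.80 on HK-2 replicate 1, at -0.83 on the RPTEC/TERT1 array of that number, 3.99 on RPTEC/TERT1 replicate 2 and 2.78 on HK-2 replicate 2. The rise was 3.18 in pair A and 3.62 in pair B. SP8, a zinc finger factor of limb outgrowth, rose by 2.77 and 3.56, and HOXA6, a homeobox gene of body patterning, by 2.90 and 2.70 (fitted 1.72 with normexp and 1.81 in the deposited values, not called in either). ZNF205, a zinc finger gene, rose by 3.69 in pair A and 4.01 in pair B, from -0.35 and -2.15 to 3.34 and 1.86.

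KCTD19 (from -0.24 and -1.97 to 3.13 and 1.59) and EMILIN1, a glycoprotein of elastic fibres (from 0.67 and -0.99 to 3.42 and 2.00), were also among the 12. In each of these genes both replicate 2 arrays were above both replicate 1 arrays. The non-coding RNAs whose probes are printed above rose as well. RNA18S5, the RNA of the small ribosomal subunit, was at 1.73 on HK-2 replicate 1, at -0.45 on the RPTEC/TERT1 array of that number, 5.23 on RPTEC/TERT1 replicate 2 and 2.89 on HK-2 replicate 2. SNORA71A, a small nucleolar RNA of the class that guides pseudouridylation, rose by 2.84 and 3.19, and LINC00577 by 3.34 and 3.75. RNA18S5 and LINC00577 were chosen after their values were seen. Of the 10 genes with the largest called rise, 6 carry only a probe, transcript or locus name, among them LOC727993, which rose by 4.05 and 4.39.

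**Figure D2:**
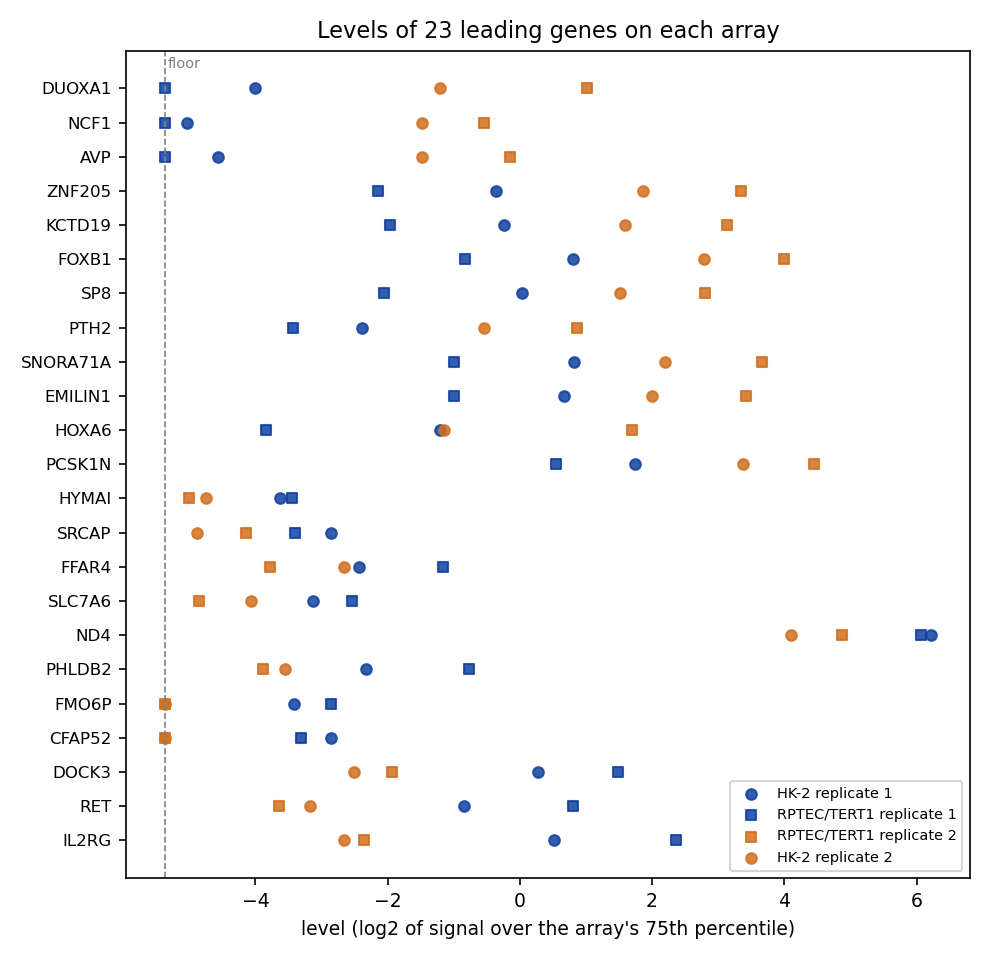
Levels of 23 leading genes on the 4 arrays, on a log2 scale relative to the 75th percentile of each array. Circles are arrays labelled HK-2 and squares arrays labelled RPTEC/TERT1, with replicate 1 in blue and replicate 2 in orange, and the dashed line is the floor of -5.37. In the upper 12 genes both orange points lie to the right of both blue ones, and in the lower 11 the orange point of each pair lies to the left of its blue one.

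Fewer genes were lower on replicate 2. RET, the receptor tyrosine kinase for GDNF that directs ureteric bud growth, was at -0.84 and 0.81 on the replicate 1 arrays of HK-2 and RPTEC/TERT1, and at -3.17 and -3.64 on the replicate 2 arrays of the same lines. It fell by 2.80 in pair A and by 3.98 in pair B (fitted -3.39 ± 0.32, 10.5-fold, adjusted p = 0.0474). CFAP52, a protein of motile cilia, was well above background on both replicate 1 arrays (-2.86 and -3.31) and on neither replicate 2 array, which makes it at least 4.88-fold lower (adjusted p = 0.0373). FMO6P, a pseudogene of the flavin monooxygenases, showed the same pattern at -3.42 and -2.86 and was at least 4.70-fold lower (adjusted p = 0.0461). The other called genes of this direction, LOC554223 (-2.38 and -2.12, adjusted p = 0.0307), ENST00000446002 (-1.99 and -2.61, adjusted p = 0.0468) and AGVR6190 (-1.84 and -2.19, adjusted p = 0.0426), carry a locus, transcript or design name and were not well above background on either replicate 2 array. These calls lay close to the threshold. RET lost its call in 6 of 9 alternative settings, with an adjusted p of up to 0.452, and CFAP52 and FMO6P in 7 of 8, up to 0.375 and 0.402. Quantile normalization was enough in each of these 3 (0.0736, 0.0511 and 0.0625).

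The other leading genes of this direction with a RefSeq symbol missed the threshold. IL2RG, the shared γ chain of several cytokine receptors, was at 0.51 and 2.36 on the replicate 1 arrays of HK-2 and RPTEC/TERT1 and at -2.66 and -2.36 on their replicate 2 arrays. Its differences were -2.88 and -5.02 (adjusted p = 0.0855). DOCK3, an exchange factor for small GTPases, differed by -2.20 and -4.00 (adjusted p = 0.093). In both the difference was larger in pair B. PHLDB2 differed by -1.57 and -2.80, the amino acid transporter SLC7A6 by -1.73 and -1.53 and FFAR4, a receptor for long-chain fatty acids, by -1.35 and -1.49. SRCAP, a chromatin remodeller (-1.28 and -1.49), and the non-coding HYMAI (-1.39 and -1.31) were near the 2-fold line. SLC7A6, SRCAP and HYMAI were not well above background on RPTEC/TERT1 replicate 2. ND4, a subunit of respiratory complex I that the mitochondrial genome encodes, was bright, at 6.23 and 6.07 on replicate 1 and 4.10 and 4.87 on replicate 2 of HK-2 and RPTEC/TERT1 (adjusted p = 0.0809).

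Higher probes were, at the median, richer in G and C than all probes tested, and lower probes were close to them. Of the 20806 probes tested, 372 (1.79%) were at least 2-fold higher and 107 (0.514%) at least 2-fold lower on replicate 2 in both pairs. The median G and C content was 55% in the higher probes, 41.7% in the lower probes and 43.3% in all probes tested. The difference in the higher probes lay mostly in C, which made up 31.3% of their bases against 21.8% in all probes tested, while G made up 25% against 22.1%. In the lower probes T stood out, at 33.1% against 28.6%.

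The pair differences climbed with G and C content above 55%. In the 6850 probes over 40% and up to 45% the median difference was 0.00 in both pairs and 1.09% of the probes were 2-fold higher. Between 60% and 65% the medians were 0.32 and 0.40 (121 probes). In the 167 probes over 70% they reached 0.97 in pair A and 0.99 in pair B, and 74 of these probes (44.3%) were 2-fold higher and 0 were 2-fold lower. The 432 probes over 60% make up 2.08% of the probes tested and 34.7% of the higher ones. Of the higher probes 37.1% had at most 50% G and C, against 76.8% of all probes tested. LINC00577 (80.0%), AVP (76.7%) and FOXB1 (76.7%) lie at the high end, while DUOXA1 (48.3%), SNORA71A (46.7%) and RNA18S5 (45%) lie near the middle. With probes over 50% left out, 77 genes were 2-fold higher and 70 lower in both pairs, and limma called 2 genes, a setting chosen after seeing the data. The part of probe composition in these differences was not tested.

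**Figure D3:**
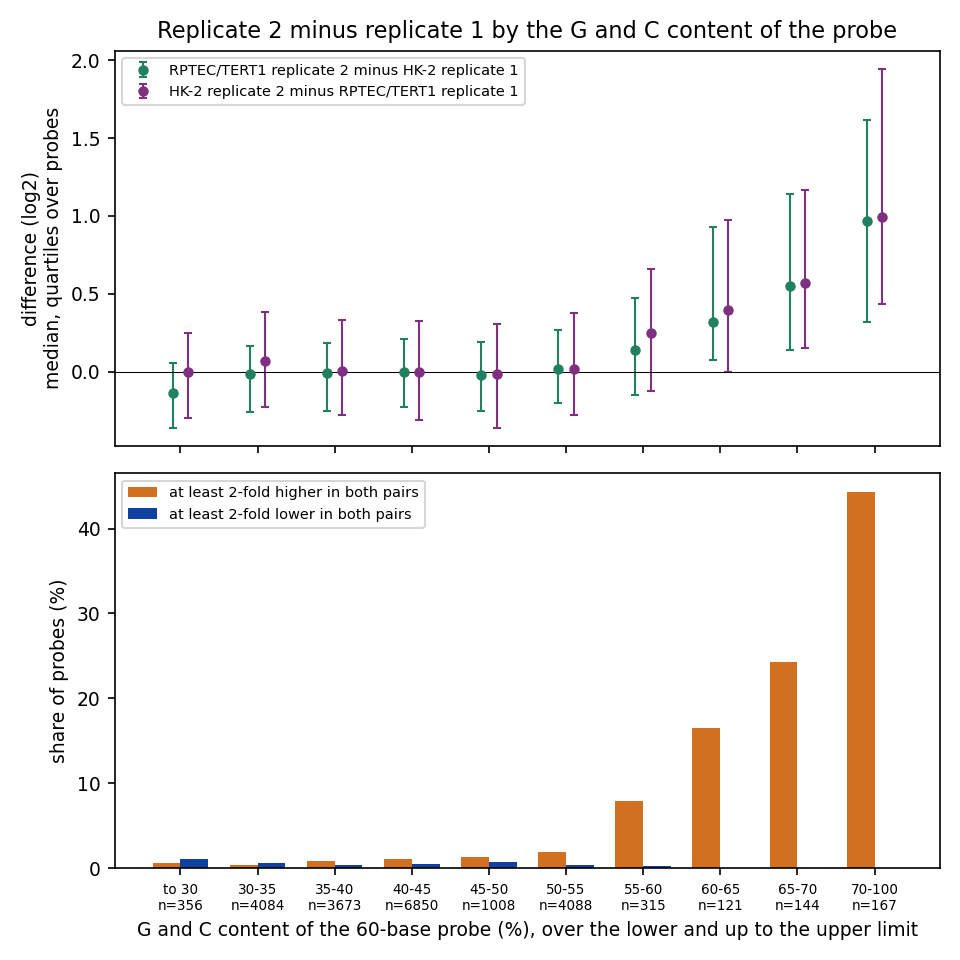
Upper panel: median replicate 2 minus replicate 1 difference (log2) over probes in each bin of G and C content, with bars from the lower to the upper quartile, for pair A in green and pair B in purple. Lower panel: share of probes in each bin (%) that were at least 2-fold higher (orange) or lower (blue) in both pairs, which reaches 44.3% higher and 0 lower in the bin over 70%.

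Shares also differed with short runs of bases. The run CCGCC stood in 32.5% of the higher probes, 0.935% of the lower probes and 2.01% of all probes tested, and CGCCC in 26.6%, 0.935% and 1.60%. Both can overlap, and at least 1 of them stood in 40.3% of the higher probes against 2.91% of all. On the opposite strand the same runs (GGCGG or the run GGGCG) stood in 8.87% of the higher probes against 2.40% of all. Over 40% and up to 50% G and C, 10.3% of 145 probes with CCGCC or CGCCC were 2-fold higher, against 0.946% of 7713 without. Among probes over 50% and up to 60% G and C, 17.2% of the 279 with CCGCC or the run CGCCC were 2-fold higher against 1.38% of the 4124 without. Over 60% the shares were 57.8% of 147 and 15.4% of 285. In the lower probes the run TGTGTG stood in 17.8% against 3.21% of all, and CTCTCT in 10.3% against 2.15%, while their opposite strands (CACACA and the run AGAGAG) stood in 0 of the 107. These runs were found in the same probes, so the shares are descriptions.

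Genes with several probes allow each difference to be read a second time on the same arrays. Of 3594 genes with at least 2 tested probes, 146 had a probe 2-fold higher on replicate 2 in both pairs, and in 9 of the 146 a second probe was as well. In 31 genes a probe was 2-fold lower, and only in PHLDB2 a second one. The other probes of the 146 genes had a median difference of -0.03, against 1.59 for the highest probe of each gene. HMGA2, an architectural chromatin protein, shows the pattern. One of its probes, richest in G and C, was 3.26 higher on replicate 2 in the mean of both pairs. The other 2, each with 38.3% G and C, were 0.19 and 0.17 higher. In TRIM46 one probe was 4.26 and 3.76 higher, while the other was at the floor in pair A and differed by -0.66 in pair B. BCL2L11, which encodes the apoptosis regulator BIM, had 1 probe that differed by -2.71 and -5.03, while its other 2 probes were 0.11 to 0.44 higher.

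Over the 2983 genes with exactly 2 tested probes, the replicate difference of one probe correlated with that of the other at 0.08 (Pearson) and 0.13 (Spearman) across genes. The difference between the pairs, read on the same probes and arrays, correlated at 0.71 and 0.68. The same probe read in pair A and in pair B correlated at 0.51 across all 20806 probes tested. That value uses single pair differences over a larger set of probes, so it is not like for like with 0.08. Within the 2983 genes, the 2 probes of a gene were less alike in the replicate difference than in the difference between the pairs.

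**Figure D4:**
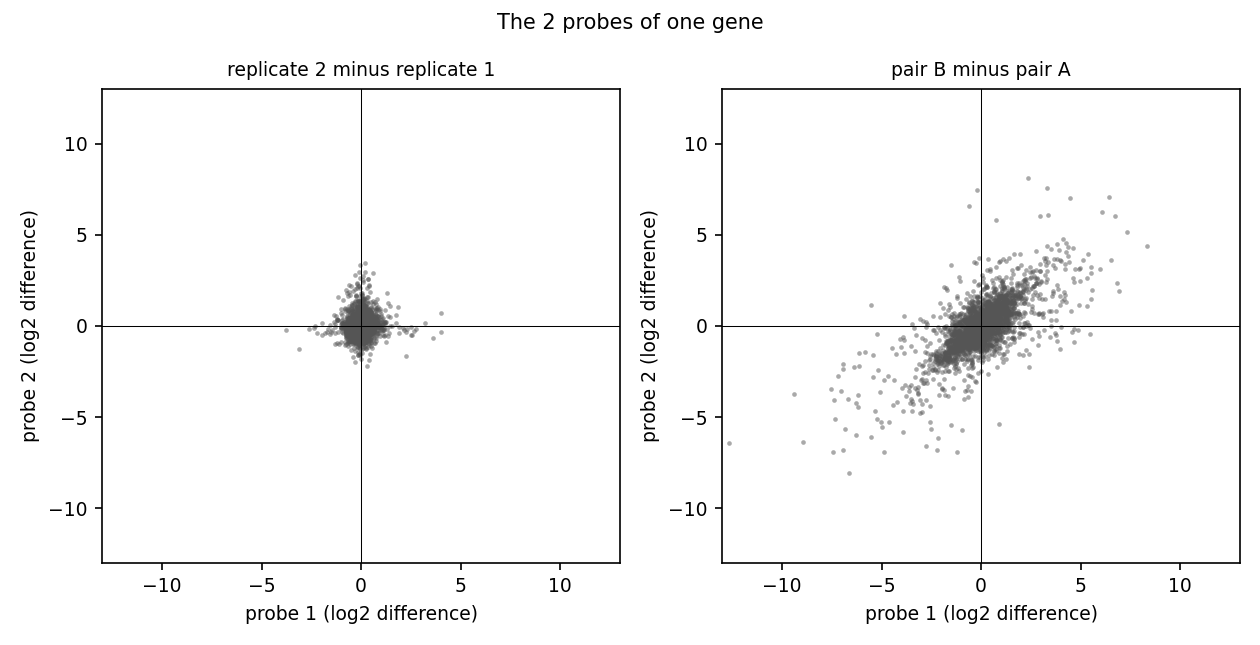
Each point is 1 of 2983 genes with 2 tested probes, with the log2 difference of one probe on the x axis and of the other on the y axis. The left panel shows replicate 2 minus replicate 1 (mean of both pairs, Pearson 0.08) and the right panel pair B minus pair A (Pearson 0.71). Both panels have the same scale. Points far from 0 lie along the axes on the left and along the diagonal on the right.

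A few genes differed the same way on more than 1 probe. SMC1A, a cohesin subunit, had 1 probe 3.47 and 3.67 higher and another 2.95 and 2.38 higher, but the third differed by -0.27 and 0.22. In the next genes every tested probe did. PRR36 was higher on both of its probes, with 78.3% and 53.3% G and C, by 1.21 and 1.39 and by 2.26 and 1.38. ENST00000507296 (76.7% and 80%) was 1.16 to 1.51 higher and DUX4 (80% to 85%) 0.80 to 1.19 higher on every tested probe. GPATCH11 was higher on both of its probes, by 1.60 and 1.28 on one and 1.08 and 1.09 on the other, with 45% and 43.3% G and C. LGALS3, the lectin galectin-3, was 0.61 and 1.04 higher on one probe and 0.90 and 0.86 on the other, with 41.7% and 71.7%. PRKDC, the DNA-dependent protein kinase, was lower on both probes (-1.23 and -1.41, and -0.58 and -1.40), as were CFL1, the actin-severing cofilin (-0.72 and -0.87, and -0.84 and -1.20), and CIRBP, a cold-inducible RNA-binding protein (-0.76 and -0.84, and -1.01 and -0.74). SMC1A and these genes were chosen for that likeness after their values were seen.

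Of all genes in the lists of pathways and cell types, 1 passed the test. The 27 lists held 493 tested genes, of which 1 passed the adjusted threshold, as did 82 of all 16468 genes tested (0.498%). With so small a share over all genes, 0 called in a list does not set that list apart. Before adjustment 77 of the list genes (15.6%) passed 0.05, against 17.9% of all genes tested. Medians are given as pair A and pair B, beside medians of 0.00 and 0.02 over all genes tested.

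For genes that IL-1β and NF-κB turn on, the medians were -0.11 and 0.00 over 32 genes, with 0 called. NFKB2, the p100 subunit of NF-κB, was lower by -0.77 and -0.88 (adjusted p = 0.141) and the chemokine CX3CL1 was higher by 0.15 and 1.03. Interferon-stimulated genes stood at -0.11 and -0.02 over 28 genes, where XAF1 differed by -1.11 and -0.81 and IFIT2 by 0.95 and 0.64 (adjusted p = 0.129 and 0.155). Immediate-early and AP-1 genes had medians of 0.01 and 0.00 over 25 genes. FOSL1 differed by -0.83 and -0.42 and NR4A1 by 0.00 and 1.22, the former value because both arrays of pair A were at the floor.

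Of the 19 genes that the study lists as inhibited by Empa, 18 could be tested, with medians of 0.12 and 0.10 and 0 called. That list was chosen by the study on arrays that include these 4. The chemokines among them were close on the 2 replicate numbers. CXCL8, the neutrophil attractant interleukin-8, was at 5.88 and 5.76 on the arrays of pair A and 4.62 and 4.74 on those of pair B. CXCL1, CXCL2 and CXCL5 differed by no more than 0.25 in either pair. In pair A CXCL1 was at 7.39 and 7.28, about as bright as CCL2, whose probe was saturated on 2 arrays. Closeness at that brightness need not mean equal amounts. P4HA2, a collagen prolyl hydroxylase, was 0.74 and 0.42 higher (adjusted p = 0.222) and TFPI2, a serine protease inhibitor, 0.24 and 0.91 higher. SLCO4A1 lacked a value on HK-2 replicate 1 and was not tested. CCL2, a monocyte attractant, was at 7.36 and 7.32 in pair A and at -4.29 and -3.29 in pair B, with its probe saturated on 2 arrays. EDN1, the vasoconstrictor endothelin-1, differed by 0.33 and 0.05, with adjusted p = 0.574. In pair B it was at -5.30 and -5.26, near the floor, and not well above background on RPTEC/TERT1 replicate 1.

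SLC5A2 itself was dim, at -3.84 and -3.57 on replicate 1 and -3.08 and -3.05 on replicate 2 of HK-2 and RPTEC/TERT1. It was 0.79 and 0.50 higher on replicate 2 in pairs A and B, which did not pass the test (adjusted p = 0.19), and its fitted difference of 0.64 turned to -0.86 with normexp background correction and to -0.51 in the deposited log2 values. Of 29 proximal tubule genes 18 could be tested, with medians of 0.08 and -0.07. PAX8, a transcription factor of tubular cells, was bright on every array (1.61 to 4.13) and differed by -0.40 and -1.17. LRP2, the endocytic receptor megalin, was near -3 on most arrays (-3.34, -3.06, -2.77 and -1.72) and differed by 0.28 and 1.05.

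Cell cycle genes were far apart between the pairs and close between the replicate numbers. Medians were 0.08 and -0.01 over 29 E2F and DNA replication genes and 0.11 and -0.05 over 25 mitotic genes, with 0 called in either. BIRC5, the mitotic protein survivin, was at -2.98 and -1.79 in pair A and 3.97 and 4.16 in pair B, so its replicate differences were 1.19 and 0.19. The replication licensing factor CDC6 differed by -1.15 and -0.23, and CDK1, the mitotic kinase, by 0.74 and 0.42. CDC6 was at the floor on RPTEC/TERT1 replicate 2. GINS4 of the replicative helicase differed by 0.68 and 0.53.

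Among metabolic lists, genes of cholesterol and fatty acid synthesis had medians of 0.21 and -0.40 over 28 genes, and those of hypoxia and glycolysis 0.14 and -0.28 over 26. MVK, mevalonate kinase, was 0.74 and 0.51 higher and INSIG1, which retains the sterol sensor in the endoplasmic reticulum, 0.67 and 0.40 higher. VEGFA, the vascular growth factor, was 1.15 and 0.61 higher (adjusted p = 0.163) and ANKRD37 0.59 and 0.71. Genes of glucose, FOXO and glucocorticoid response had medians of 0.03 and 0.00 over 14 genes, with TSC22D3 0.58 and 0.63 higher and the insulin receptor substrate IRS2 differing by -0.39 and -0.86. Clock genes had medians of 0.00 and 0.18 over 17 genes, where HLF was 0.61 higher in both pairs and CIART differed by 0.08 and -1.07. None of these genes passed the test.

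For respiratory chain genes the medians were 0.20 and 0.30 over 36 genes, with 0 called. Of the 36, 28 had the same sign in both pairs, against 64.5% of all genes tested. An unadjusted p under 0.05 was reached by 7 in the higher and 1 in the lower direction, against 10.1% and 7.79% of all genes tested. COX5B of complex IV was 0.77 and 1.04 higher (adjusted p = 0.14), while ATP5F1B, the catalytic β subunit of ATP synthase, differed by -0.40 and -1.36. These genes are encoded in the nucleus, and ND4 of the mitochondrial genome differed the other way. Cytosolic ribosomal protein genes had medians of 0.12 and -0.14 over 63 genes, with RPS14 0.25 and 1.18 higher and RPL21 0.47 and 0.67 higher. Replication-dependent histone genes had medians of 0.01 and 0.79 over 13 genes. H1-4, a linker histone, was 0.99 and 1.13 higher (adjusted p = 0.0963) and H4C8 0.32 and 1.66 higher.

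In the TGF-β and matrix list the medians were -0.17 and -0.30 over 23 genes. TNC, the matrix glycoprotein tenascin-C, was at 1.48 and 0.66 on the replicate 1 arrays of HK-2 and RPTEC/TERT1 and at -0.32 and 0.18 on their replicate 2 arrays, differing by -1.30 and -0.98 (adjusted p = 0.099). LTBP2, which binds elastic fibres, differed by -1.41 and -0.34, and VIM, the intermediate filament vimentin, by 0.80 and 0.88. LTBP2 was at the floor on RPTEC/TERT1 replicate 2. Among stress lists, the medians were 0.17 and 0.13 over 26 genes of ATF4 and the unfolded protein response, -0.10 and 0.12 over 18 heat shock genes, 0.11 and 0.09 over 21 NRF2 targets, -0.07 and -0.29 over 10 metallothioneins and -0.01 and -0.11 over 24 p53 targets. STC2, a secreted glycoprotein of the unfolded protein response, was 0.84 and 0.66 higher and EDEM1, which sends misfolded proteins to degradation, differed by -0.93 and -0.52. The co-chaperone STIP1 differed by -0.73 and -0.90 and the chaperone HSP90AA1 by 1.16 and 0.44. AKR1B10 was 0.63 and 0.41 higher, AKR1C3 0.29 and 0.67 higher, MT1G differed by -1.82 and -0.41 and MT2A, saturated on all 4 arrays, by -0.28 and -0.51. MT1G was not well above background on RPTEC/TERT1 replicate 2, AKR1B10 on RPTEC/TERT1 replicate 1 and STC2 on HK-2 replicate 1. DDB2 differed by -1.36 and -0.07 and AEN by -0.87 and -0.41. None of them passed the test.

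**Figure D5:**
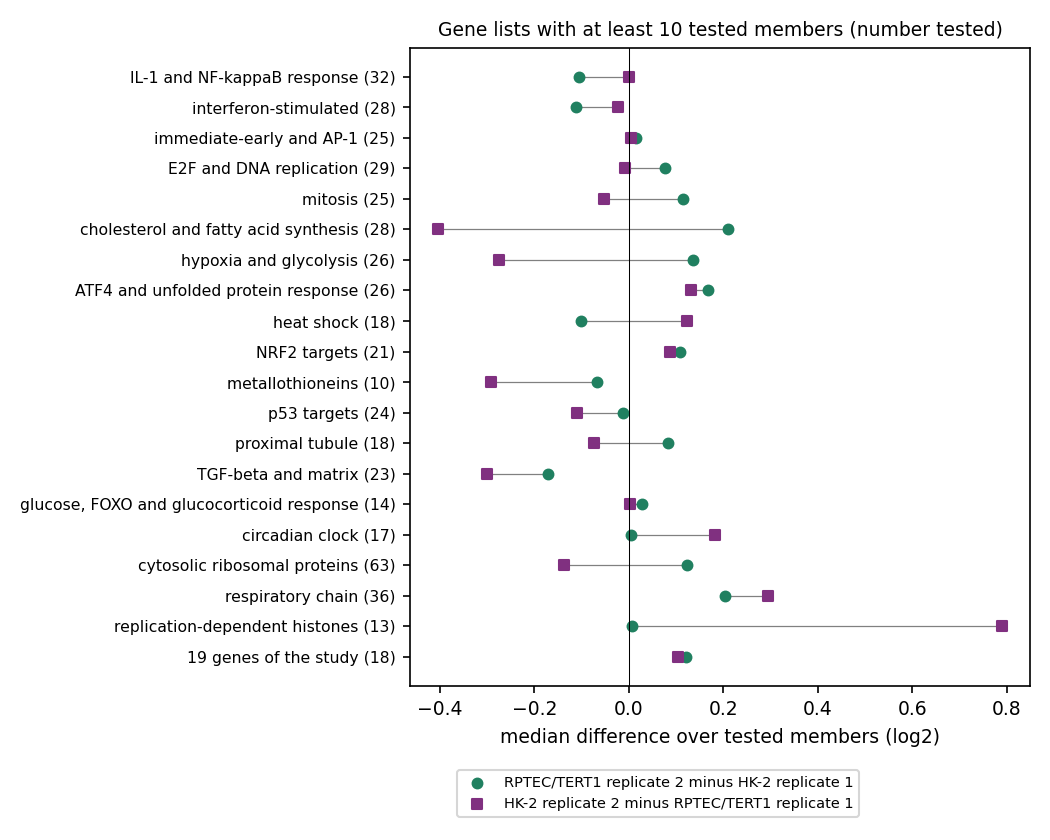
Median log2 difference, replicate 2 minus replicate 1, over the tested members of each gene list with at least 10 tested members (number in brackets). Green circles are pair A and purple squares pair B. Respiratory chain genes lie at 0.20 and 0.30, histone genes at 0.01 and 0.79 and cholesterol genes on opposite sides of 0.

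The 1 list gene that rose was TYROBP, an adaptor of activating receptors on myeloid and natural killer cells. It was at -1.46 on HK-2 replicate 1, at -3.19 on the RPTEC/TERT1 array of that number, 1.02 on RPTEC/TERT1 replicate 2 and -0.78 on HK-2 replicate 2, a rise of 2.48 in pair A and 2.41 in pair B (fitted 2.45 ± 0.16, adjusted p = 0.0216). The call was lost in 4 of 9 alternative settings, among them normexp (1.37, adjusted p = 0.405) and the deposited values (1.52). None of the other tested leukocyte markers was higher by more than 0.12. ITGAM of myeloid cells differed by -1.12 and -0.76, PTPRC, the CD45 antigen of all leukocytes, by -0.87 and -0.30, CD68 by -0.04 and -0.47 and CD14 by 0.07 and 0.12. CD3E was well above background on 1 array. Summed over the 7 markers the signal was 140.6% and 209.3% of the 75th percentile on the replicate 1 arrays and 207.5% and 296.5% on the replicate 2 arrays, and without TYROBP it was 104% to 198% on replicate 1 and 94.1% to 149% on replicate 2.

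Markers of other kidney cells gave no called gene. Podocyte markers had 3 of 4 well above background on every array, with a summed signal of 80.1% to 104% on replicate 1 and 59.1% to 66.1% on replicate 2, and NPHS1, the slit diaphragm protein nephrin, differed by -1.40 and 0.36. The 4 collecting duct markers were well above background on 0 arrays. Fibroblast markers followed the pairs, with 0 of 6 well above background in pair A and 2 of 6, DCN and LUM, in pair B, and the loop marker SLC12A1 was well above background only in pair A.

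RNA spiked into the labelling reaction gives a measure that does not come from the cells. Of the 10 spike-in sequences 5 were well above background on all 4 arrays, and all 5 were lower on replicate 2 in both pairs, by -1.13 to -0.39 in pair A and by -0.67 to -0.02 in pair B (medians -0.70 and -0.48). These values are relative to the 75th percentile of the cell probes. That percentile was 393 and 488 intensity units on the replicate 1 arrays and 429 and 748 on the replicate 2 arrays. The part of the spike-in and hybridisation steps in the differences above was not tested.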

How the data were processed

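Each array was a 1-colour (Cy3) Agilent array. The authors deposited spot intensities from Agilent Feature Extraction 9.5.3.1, background-subtracted and not scaled between arrays, and a table of log2 values of the same spots for which no source used here gives the processing. The log2 values ranked spots as mean intensity minus local background did (Spearman 0.999 on all 4 arrays). Array medians were 8.31 and 6.67 on the replicate 1 arrays of HK-2 and RPTEC/TERT1 and 7.04 and 6.65 on the replicate 2 arrays, and their centring and scaling stay unknown. They were used as an alternative only.

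From the 43118 non-control spots, outlier spots were left out, the processed signal was scaled to each array's 75th percentile, floored at 2.42% of it and taken to log2. The share of spots well above background was 59.2% to 64.9% per array, and the number of arrays limits the precision. Probes of a gene were averaged, without those that no array read well above background. The 34127 probes carried 25992 gene names of the array design, and 16468 genes well above background on at least 2 arrays were tested with limma 3.58.1 in R 4.3.3 (lmFit and eBayes, crossed pair and replicate number as terms, Benjamini-Hochberg adjustment at 0.05). Each array was on its own slide. The pairing by replicate number was the comparison itself. The block pairs were taken from the likeness of the arrays.

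Named genes were the 12 in each direction with the largest smaller-of-2 pair difference and a RefSeq symbol, list members 2-fold apart in both pairs or else the 2 with the largest fitted difference, CCL2, EDN1 and SLC5A2, and called genes, a few of which are not reported here. The members, lists and pairs were chosen with earlier results of these data known.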

Additional observations from a re-analysis of the deposited data

Results flagged for a closer look

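For 7 gene lists with at least 10 tested members the median difference had opposite signs in the pairs, and these differences were not tested. Pair B minus pair A was -0.61 for cholesterol and fatty acid synthesis (0.21 in pair A and -0.40 in pair B), -0.41 for hypoxia and glycolysis, -0.26 for cytosolic ribosomal proteins, -0.17 for mitosis, -0.16 for proximal tubule genes, -0.085 for E2F and DNA replication and 0.22 for heat shock. Groups of 2 arrays are too small for a search for single outlying arrays.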

How the results depend on the processing

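The count of genes 2-fold apart the same way (314) stayed within 1.5 times under every alternative but 1 added later (221 to 377), but of the 314 only 142 were so with normexp and 149 in the deposited values. The count of 82 calls did not stay. SHH turned from 2.81 to -0.043 with normexp, where the median of all genes was -0.46. With limma in each case, the number called was 45 after quantile normalization, 52 after median scaling, 36 with normexp, 34 in the deposited log2 values, 48 with outlier spots kept, 468 over genes well above background on all 4 arrays, 137 with the brightest probe of each gene, 434 with an intensity trend, and 0 with no filter (2849 genes at an unadjusted p under 0.05). With no replicate block, that is, the crossed pairs left out of the fit, 0 genes were called (195 unadjusted), and with the labelled cell line as the block 0 (46 unadjusted). Leaving out each array in turn without the block gave 0 calls each time (53 to 170 unadjusted), the lone array being assumed to vary like the others. Settings chosen after seeing the data gave 2 calls and 147 genes 2-fold apart with probes over 50% G and C left out (13021 genes tested), and 0 calls (2870 unadjusted) with the median of each G and C percentage taken out. Beyond fewer genes or arrays entering these fits, the cause was not tested.

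The correlation of the pair differences was 0.485 with quantile normalization, 0.391 with normexp, 0.503 in the deposited values, 0.384 with no filter, 0.602 over genes on all 4 arrays, 0.484 with outlier spots kept, 0.517 with the brightest probe, 0.426 without probes over 50% G and C and 0.461 with the G and C medians taken out. Higher genes made up 76.4% of the 314, and 61.3% with normexp, 66.1% in the deposited values, 52.4% without probes over 50% G and C and 60% with the G and C medians taken out. Normexp moved the median fitted difference of all genes from 0.01 to -0.46 and the deposited values to -0.32, so directions there are relative to that shift. With 4 arrays and 1 residual degree of freedom, dim genes at the floor are the least certain.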
